A study of Homo sapiens with 16 samples.

Results

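Genes of the Notch pathway were followed through an m6A map of prostate cancer cells. They were the receptors NOTCH1, NOTCH2 and NOTCH3, the ligands JAG1, JAG2 and DLL1, the effectors HES1, HES6 and HEY1, and the coactivator MAML1, 10 genes in all. In MeRIP-seq an antibody to N6-methyladenosine (m6A) pulls down modified RNA fragments (IP), and their number at a site is set against that in unenriched input RNA. The cells were C4-2B, a human prostate cancer line that is sensitive to the antiandrogen enzalutamide, and MDV-R (MDVR in the labels), an enzalutamide-resistant line derived from C4-2B by serial passage. Both lines were labelled wild type and harvested at day 3. The labels give RPMI with serum for both, whereas the study's methods keep MDV-R in enzalutamide and name no drug for C4-2B, so that exposure to the drug and the line cannot be told apart. Each line was represented by 4 replicates, each with an IP and an input library. MDV-R is a single derived line, so that resistance and any other difference between the lines cannot be told apart, and nothing in the labels says that the replicates were separate cultures, so that p-values measure the spread between these samples, which may be technical. A region counted as a Notch region where the merged peak list of the series had a region whose strongest peak summit lay inside the GENCODE span of one of the 10 genes, on hg38. This gave 26 of the 36970 merged regions.

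In Notch signalling a ligand on one cell binds a receptor on its neighbour, the receptor is cleaved, and its intracellular domain moves to the nucleus. There it joins the DNA-binding protein RBPJ and a Mastermind-like coactivator such as MAML1, and switches on genes of the HES and HEY families, which are transcriptional repressors. In the prostate the pathway is known for its part in the fate of basal and luminal epithelial cells. m6A is placed on RNA by the METTL3 and METTL14 complex, mostly within the DRACH consensus, of which GGAC is a frequent form, and it is known to lie often in long exons and near stop codons.

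Each of the 10 genes held at least 1 region, and 7 of them held at least 1 region that was called in all 8 lists. NOTCH1, NOTCH2, JAG1, JAG2, HES1 and HEY1 had 1 such region each and MAML1 had 2. The 8 regions lay in coding sequence in 7 cases and in the 3′UTR in the case of HES1, against 43.9% and 21.6% of all regions called in every list. The 2 sets differ by their rule, since 5.78% of all regions called in every list lay between genes. Of the 8 regions, 7 lay in the last exon of the canonical transcript. The windows around 6 of their summits are shown here because the 6 genes carry the regions with the most IP tags; each runs 5′ to 3′ on the strand of the gene, in hg38, with GGAC in capitals. The windows reach 50 nt to either side of the summit, except that the NOTCH2 window stops where the coding sequence ends and the HES1 window is limited to 30 bases.
NOTCH1 exon 34, chr9:136497213-136497313, minus strand: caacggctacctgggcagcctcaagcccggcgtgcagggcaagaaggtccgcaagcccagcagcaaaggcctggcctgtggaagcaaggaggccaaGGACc
NOTCH2 exon 34, chr1:119915309-119915393, minus strand: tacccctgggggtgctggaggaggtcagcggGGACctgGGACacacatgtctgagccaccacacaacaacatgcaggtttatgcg
JAG1 exon 26, chr20:10639701-10639801, minus strand: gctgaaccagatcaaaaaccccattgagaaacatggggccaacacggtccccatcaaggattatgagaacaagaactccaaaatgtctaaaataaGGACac
JAG2 exon 26, chr14:105142845-105142945, minus strand: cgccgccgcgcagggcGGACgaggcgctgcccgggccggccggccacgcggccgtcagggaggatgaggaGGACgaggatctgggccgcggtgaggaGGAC
HES1 3′UTR, chr3:194138232-194138261, plus strand: gagggggctcaggccacccctcctcctaaa
MAML1 exon 2, chr5:179765669-179765769, plus strand: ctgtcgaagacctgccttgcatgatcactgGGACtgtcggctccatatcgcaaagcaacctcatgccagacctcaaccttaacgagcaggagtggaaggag
GGAC was searched on the strand of the gene within 50 nt of the summit. All 8 regions called in every list held at least 1 match. The same held for 49.0% of all 8643 regions in genes that were called in 8 of 8 lists, and for 40.9% of all 31970 regions in genes. Over the 7245 exonic regions called in every list the share was 50.5% on the strand of the gene and 25.4% on the other strand. The A of the nearest match lay 10 nt before the summit in NOTCH2, 18 nt before it in MAML1 exon 2, 13 nt before it in MAML1 exon 5, 22 nt after it in JAG2, 40 nt before it in HEY1, 41 nt before it in HES1, 47 nt after it in JAG1 and 48 nt after it in NOTCH1. Within 25 nt of the summit 4 of the 8 regions held a match, against 29.2% of all regions in genes called in every list. Of the other 18 Notch regions, 8 held a match within 50 nt. A match describes the letters in the window and does not locate a modified base.

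Depth and cell identity were checked first. Library sizes count deduplicated reads (tags) and were worked back from the fold enrichment and p-value of each peak. The IP libraries held 0.864 to 1.21 M tags in C4-2B and 0.897 to 1.03 M in MDV-R, whereas the input libraries held 0.901 to 1.23 M tags in C4-2B and 1.60 to 2.97 M in MDV-R, without overlap. The lists held 13191 to 24746 peaks in C4-2B and 23880 to 30645 in MDV-R. The part of these depths in the differences below was not tested. Of the genes that mark prostate luminal cells, KLK2, FOLH1, HOXB13 and SLC45A3 had a region called in all lists of both lines, and KLK3 and TMPRSS2 had one with a peak in 3 lists of C4-2B and 4 of MDV-R. The neuroendocrine markers CHGA, SYP and INSM1 had no region in either line. The sample titles of MDV-R also carry the name of another line, so 6 bladder or mesenchymal markers were examined: UPK2 and VIM had a region called in all lists of both lines, UPK3A had a region with a peak in 2 lists of C4-2B and 4 of MDV-R, and UPK1B, CAV1 and AXL had none in either line.

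The calls were then compared between the lines. Of the 26 Notch regions, 8 (30.8%) were called in 8 of 8 lists, against 25.2% of all merged regions. No Notch region was called in all 4 lists of a line and in none of the other, against 1.22% of all regions with a peak for C4-2B and 3.68% for MDV-R. With the lists cut to equal size, 2 did so, HEY1 exon 5 for C4-2B and the region at the border of MAML1 exon 3 for MDV-R, and with each library left out 0 to 2 did. The shares of 1.22% and 3.68% are for all lists at full length, so these counts cannot be set against them. With 4 against 4 lists the smallest p of Fisher's exact test (two-sided) is 0.0286, and no Notch region passed after adjustment, so these counts are descriptions. Both lines called 12 regions, those 8 included, MDV-R lists alone called 13 and a C4-2B list alone called 1. Over all regions with a peak, 28.3% were called in MDV-R lists alone and 13.3% in C4-2B lists alone. A single list called 12 Notch regions, where 20.8% of all regions with a peak were called in 1 list. Of the 12, 6 came from MDV-R replicate 4, which was the longest list, 3 from MDV-R replicate 2, 2 from MDV-R replicate 1 and 1 from C4-2B replicate 2. Among the 26 regions, 16 had their strongest summit in coding sequence and 3 in introns, and the other regions fell to 3′UTRs (3), 5′UTRs (2) and non-coding exons (2). The coding share was 61.5%, against 24.9% of all regions on the main chromosomes, where 34.6% lay in introns. The 2 sets differ by their rule: a Notch region lies within a coding gene, whereas 12.2% of all regions lay between genes. One more region, at chr9:136545906-136548551, overlapped the start of NOTCH1, but its summit lay upstream of the gene, within the span of the long non-coding RNA NALT1 on the other strand, and it was not counted.

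**Figure D1:**
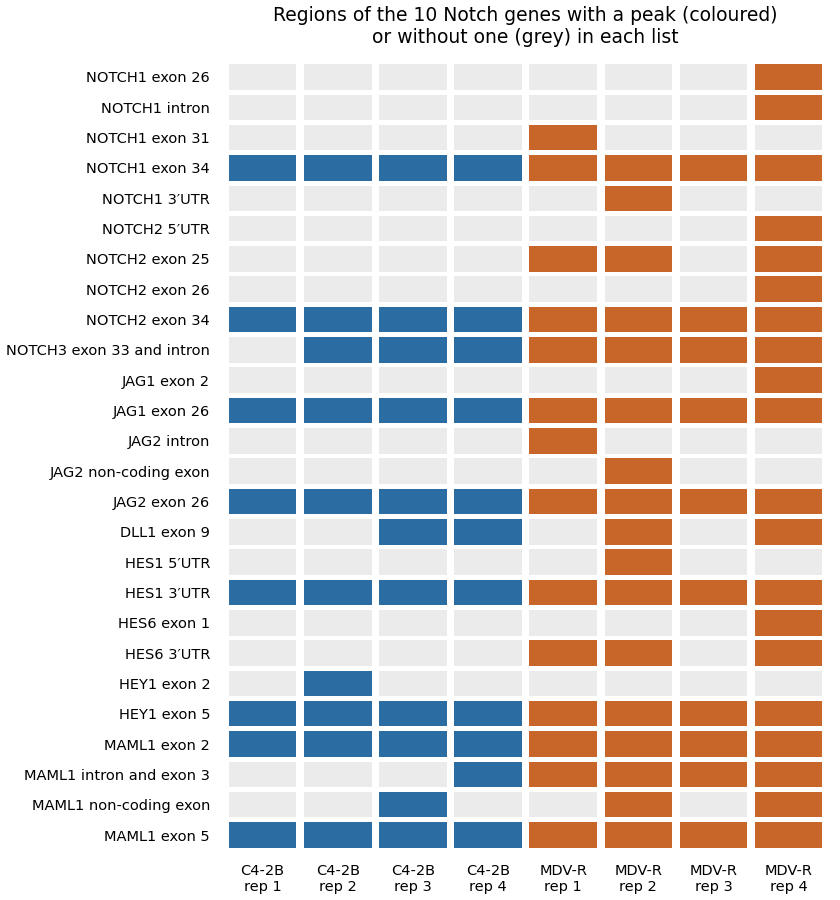
Rows are the 26 Notch regions, 5′ to 3′ within each gene and named by the place of the strongest summit, and columns are the 8 peak lists. Exon numbers follow the canonical transcript and classes follow all transcripts of the gene, so that the non-coding exons of JAG2 and MAML1 are introns of the canonical one. A coloured cell marks a peak in that list; 8 rows are filled in all 8 lists, and 13 rows are filled in MDV-R lists alone.

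The summits were then placed against the stop codon. Of the 8 regions called in every list, 5 had their strongest summit within 300 nt of the stop codon, and 4041 of the 6083 regions called in every list with a summit in an exon of a canonical coding transcript (66.4%) lay in the last exon, with 40.1% within 300 nt of the stop codon. The NOTCH2 summits were the most closely placed on the coding side, 28 to 55 nt before the stop codon in the 8 lists. Those of HES1 lay 3 to 18 nt past the first base of the stop codon. The HEY1 summits lay 91 to 159 nt and the JAG1 summits 203 to 321 nt before it. In JAG2 the strongest summit took 2 positions, 191 to 200 nt before the stop codon in C4-2B replicates 1 and 2 and MDV-R replicates 1 and 3, and 389 to 395 nt before it in the other 4 lists, so that both positions occurred in both lines. The NOTCH1 summits lay farther inside the last exon, 1183 to 1230 nt before the stop codon, within a spread of 47 nt. The MAML1 regions also lay away from it: exon 5 held summits 759 to 877 nt before the stop codon, and exon 2 held summits 1621 to 2411 nt before it, of which that of C4-2B replicate 4 was the nearest to it.

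**Figure D2:**
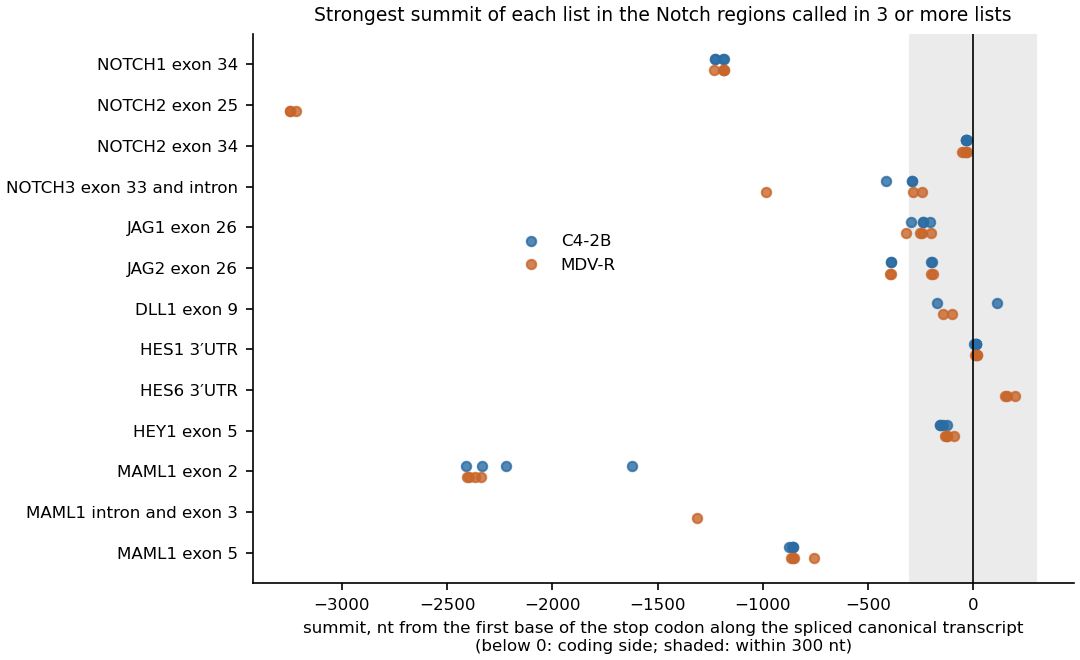
Each point is the strongest summit of a list in a Notch region called in 3 or more lists, placed along the spliced canonical transcript in nt from the first base of the stop codon, with coding sequence below 0 and the shaded band within 300 nt; summits in introns are left out. The points of HES1, HEY1, JAG1 and the NOTCH2 region called in every list lie within or at the edge of the band. Those of NOTCH1, MAML1 and the NOTCH2 region called in MDV-R lists alone (3217 to 3246 nt before the stop codon) lie outside it.

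Strength was then compared with 3 measures at the strongest summit of each list: the fold enrichment that the authors deposited, which sets IP against local background, the IP tags scaled to 1 M IP tags of the library (CPM), and the local background as a multiple of the average background of that library. The local background rests on the input library and approximates the abundance of the transcript around the summit; where it is low for a line, less of a transcript per cell and fewer cells with the transcript cannot be told apart. Each measure was tested on the log2 scale with limma over the 9327 regions called in every list, with Benjamini-Hochberg adjustment over all of them. Over these regions the median difference, MDV-R minus C4-2B, was 0.44 for fold enrichment, 0.06 for IP tags and -0.48 for local background, so values centred on the median of each list are given where they alter a call.

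In fold enrichment none of the 8 Notch regions tested passed, while 3.41% of all tested regions were called higher and 0.225% lower in MDV-R. Unadjusted, NOTCH1, NOTCH2, HES1, MAML1 exon 2 and HEY1 had p-values from 0.0154 to 0.0454 in limma. Without MDV-R replicate 3, NOTCH1, NOTCH2, HES1 and MAML1 exon 2 passed as higher in MDV-R, while 21.6% of all regions were then called higher and 0.793% lower. For IP tags, JAG1 rose (19.8% of all regions were called higher) and HES1 and HEY1 fell (14.7% lower). For local background, NOTCH1 and HES1 fell (11.0% lower), and none rose (1.66% higher). By an exact permutation test (two-sided), whose smallest p is 0.0286 before adjustment, none of these calls passed. The lowest adjusted p was 0.0896, for IP tags at JAG1, HEY1 and NOTCH2, of which limma did not call NOTCH2. It was also the lowest of all 9327 regions for IP tags, so it does not rank these regions. The median log2 difference over the 8 Notch regions was 0.55 for fold enrichment, 0.01 for IP tags and -0.67 for local background. Per measure, the lists of the 2 lines did not overlap for NOTCH2 and JAG1 in IP tags, with MDV-R above (20.8% of all regions), for HEY1 in IP tags, with MDV-R below (11.1%), and for HES1 in local background, with MDV-R below (15.5%). Fold enrichment overlapped between the lines in all 8 regions (10.2% of all regions had MDV-R wholly above and 0.943% wholly below), and no Notch region had its local background wholly above in MDV-R (2.09%).

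**Figure D3:**
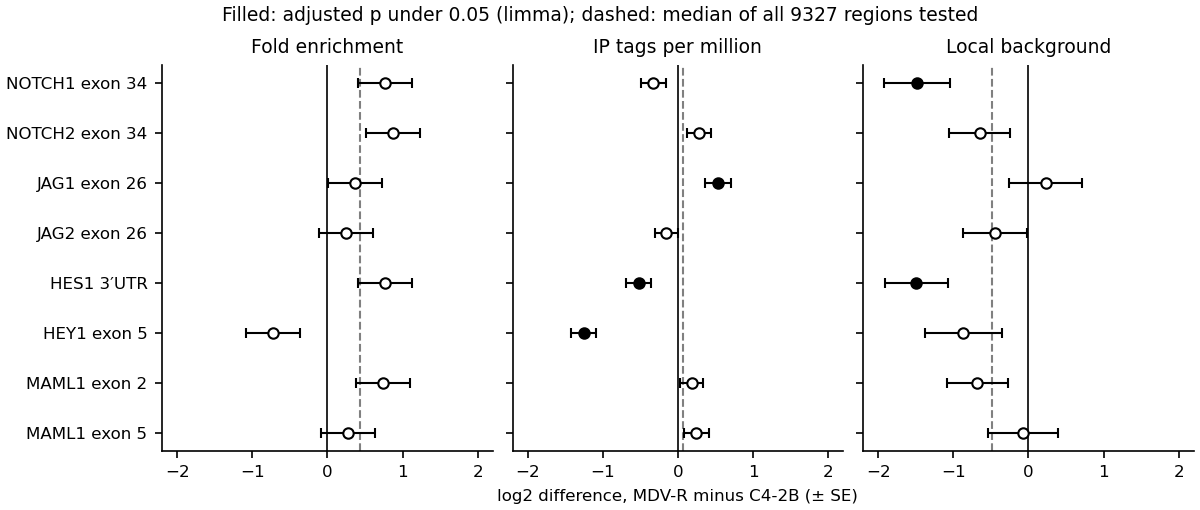
Points are the log2 differences, MDV-R minus C4-2B, of the 8 Notch regions called in every list, with their SE, for fold enrichment, IP tags and local background. Filled points passed at an adjusted p of 0.05 (JAG1, HES1 and HEY1 for IP tags, NOTCH1 and HES1 for local background) and the dashed line is the median of all regions tested.

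Of the receptors, NOTCH2 had the most IP tags. Its region in exon 34, at chr1:119914152-119916755, lies in the exon that codes for the end of the intracellular domain. The CPM values in replicates 1 to 4 were 97.0, 125, 135 and 125 in C4-2B and 145, 155, 138 and 143 in MDV-R. Every MDV-R list stood above every C4-2B list, by a small margin, and the difference did not pass (log2 difference 0.28, SE 0.16, limma adjusted p = 0.171). Fold enrichment was 4.42, 10.9, 10.5 and 7.18 in C4-2B and 11.5, 18.4, 10.8 and 17.7 in MDV-R. Its mean was 8.23 ± 3.03 against 14.6 ± 4.03 (SD, n = 4 each; log2 difference 0.87, SE 0.36, limma adjusted p = 0.120), with MDV-R replicate 3 below C4-2B replicate 2. The local background averaged 45.0 ± 14.3 in C4-2B against 28.5 ± 7.99 in MDV-R and overlapped between the lines. NOTCH2 also held the region in exon 25, at chr1:119925515-119925896, that MDV-R replicates 1, 2 and 4 alone called, with 22 to 28 tags. A 5′UTR peak at chr1:120069508-120069800, called in MDV-R replicate 4 alone, lies in the part of NOTCH2 that the NOTCH2NL genes copy, and its reads cannot be assigned with certainty.

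The NOTCH1 region in exon 34, at chr9:136495600-136497800, had fewer IP tags. As CPM they were 55.5, 85.2, 74.0 and 95.0 in C4-2B and 56.6, 68.0, 54.5 and 63.6 in MDV-R. The ranges overlapped, with C4-2B replicate 1 among the MDV-R lists (log2 difference -0.33, SE 0.17, limma adjusted p = 0.127). The local background was 19.97, 17.1, 11.0 and 23.0 times the library average in C4-2B and 8.46, 4.04, 11.3 and 3.71 times in MDV-R. It was 2.79-fold lower in MDV-R (log2 difference -1.48, SE 0.44, limma adjusted p = 0.0337), although MDV-R replicate 3 stood at the level of C4-2B replicate 3. The call was lost without any one of replicates 1, 2 and 4 of either line (limma adjusted p = 0.0613 to 0.127). Centred on the median of each list the IP tags passed as well, as lower in MDV-R (log2 difference -0.41, limma adjusted p = 0.00753). After centring, 2518 of all 9327 regions were called lower in IP tags. Fold enrichment was 7.29 to 15.8 in C4-2B and 11.7 to 28.6 in MDV-R. The other 4 NOTCH1 regions, in exons 26 and 31, an intron and the 3′UTR, were each called in 1 MDV-R list with 7 to 15 tags.

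NOTCH3 was marked more weakly. Its single region, at chr19:15160816-15161925, had a peak in 3 lists of C4-2B and 4 of MDV-R and spanned the 5′ part of the last exon, number 33, and the end of the intron before it. The strongest summit lay in the intron in MDV-R replicate 2 and in the exon in the other 6 lists, of which 5 placed it 243 to 416 nt before the stop codon. The CPM values were 29.7, 26.8 and 32.4 in C4-2B replicates 2 to 4 and 26.6, 27.6, 30.2 and 33.5 in MDV-R. These levels overlapped, and fold enrichment lay between 3.67 and 7.63 over the 7 lists. The region was not tested because C4-2B replicate 1, the shortest list, had no peak there.

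Both JAG ligands carried a strong region in exon 26, the last exon, on the part that codes for the intracellular tail. At JAG1, at chr20:10639258-10640100, the CPM values were 55.5, 94.1, 90.0 and 99.6 in C4-2B and 111, 131, 122 and 116 in MDV-R. All MDV-R lists stood above all C4-2B lists, and the tags were 1.45-fold higher (log2 difference 0.53, SE 0.17, limma adjusted p = 0.0124). Without C4-2B replicate 1, which was the lowest, the log2 difference was 0.34 (limma adjusted p = 0.0145). Fold enrichment ranged from 7.29 in C4-2B replicate 1 to 39.9 in C4-2B replicate 2, a range that held all 4 MDV-R lists. It averaged 22.3 ± 13.5 in C4-2B against 25.7 ± 9.70 in MDV-R (SD, n = 4 each; limma adjusted p = 0.506). The local background did not separate the lines either, at 11.3 ± 6.54 and 12.7 ± 6.98. In −log10 p, JAG1 was among the strongest Notch regions, at the 71.4th to 98.9th percentile of its list.

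At JAG2, at chr14:105141770-105143371, the CPM values were 115, 143, 136 and 144 in C4-2B and 119, 127, 123 and 113 in MDV-R. C4-2B replicate 1 fell among the MDV-R lists, and the difference did not pass (log2 difference -0.15, SE 0.15, limma adjusted p = 0.478). Centred on the median of each list it passed, as lower in MDV-R (log2 difference -0.24, limma adjusted p = 0.0244), where 2518 of all 9327 regions were called lower. Fold enrichment averaged 9.15 ± 2.90 in C4-2B against 11.1 ± 3.85 in MDV-R (limma adjusted p = 0.657). JAG2 also had an intronic peak in MDV-R replicate 1 and a peak in a non-coding exon in MDV-R replicate 2.

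DLL1 was the weakest of the ligands in the merged regions. Its region at chr6:170282856-170283314 had its strongest summit in exon 9, 142 nt before the stop codon, and had a peak in replicates 3 and 4 of C4-2B and 2 and 4 of MDV-R, with 6 to 11 tags. The summit of C4-2B replicate 3 lay outside the region, in the 3′UTR 111 nt past the first base of the stop codon, so that its 9 tags come from another site. A clearer cluster of peaks lay inside the annotated DLL1 span but in none of the merged regions, and it was picked out after its values were seen. It covers chr6:170304507-170305070, in a stretch that an extended DLL1 transcript spans as an intron and that FAM120B spans on the other strand. The lists give no strand, so its gene cannot be told. All 8 lists called it, with 42, 39, 37 and 32 tags in C4-2B and 21, 26, 37 and 22 in MDV-R. MDV-R replicate 3 stood with the C4-2B lists and the other 3 MDV-R lists stood below. The CPM averaged 37.5 ± 2.11 in C4-2B against 27.9 ± 5.73 in MDV-R, and in a fit over 9828 regions built from the lists themselves the tags were lower in MDV-R (log2 difference -0.45, SE 0.16, limma adjusted p = 0.0273, where 15.0% of regions were called lower). Fold enrichment at this cluster averaged 24.9 ± 3.89 in C4-2B against 18.9 ± 3.20 in MDV-R and did not pass (limma adjusted p = 0.465). In all, 20 of the 127 peaks in the 10 spans overlapped no merged region, 14 of them in DLL1 and 6 in MAML1, against 8.59% of all peaks; the 6 MAML1 peaks formed 1 cluster in the 3′UTR at chr5:179775892-179776875, called in 3 lists of each line with 26 to 33 tags.

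HEY1, a transcriptional repressor and a direct Notch target, showed the largest difference in IP tags between the lines among the 8 regions tested. Its region in exon 5, the last exon, at chr8:79765101-79765918, held 18, 28, 18 and 18 tags in C4-2B and 8, 7, 9 and 8 tags in MDV-R. As CPM this was 14.9, 27.7, 19.3 and 20.8 in C4-2B and 8.88, 7.44, 8.76 and 8.92 in MDV-R. No MDV-R list reached the lowest C4-2B list, and the tags were 2.38-fold lower in MDV-R (log2 difference -1.25, SE 0.17, limma adjusted p = 1.06e-07). The counts are small: an exact Poisson 95% interval around 7 tags runs from 2.81 to 14.4 and covers counting error only. Around 18 tags, as in C4-2B replicate 1, it runs from 10.7 to 28.4, so that these intervals overlap. The limma SE rests on the spread between lists and on the variance prior and does not weigh the counts. Its p-value can therefore overstate the certainty at HEY1. Fold enrichment was 7.22, 8.37, 10.2 and 14.8 in C4-2B and 6.60, 4.89, 7.45 and 5.17 in MDV-R. Only MDV-R replicate 3 lay above a C4-2B list, C4-2B replicate 1, and the difference did not pass (log2 difference -0.72, SE 0.36, limma adjusted p = 0.192). Centred on the median of each list it passed (log2 difference -1.12, limma adjusted p = 0.0477), where 167 of all 9327 regions were called lower. HEY1 was the only one of the 8 Notch regions with a lower mean fold enrichment in MDV-R; after centring the values for JAG1, JAG2 and MAML1 exon 5 were also below 0, without passing. The local background was low in both lines, 3.60 ± 2.67 in C4-2B and 1.68 ± 0.691 in MDV-R (limma adjusted p = 0.257). In C4-2B replicate 4 and MDV-R replicate 3 it stood at 1.00, the lowest shared background of the library. A lower input at the summit could not be seen in these lists, and their fold enrichment rests on that value. In −log10 p the region averaged the 46.5th percentile of the C4-2B lists and the 12.1th percentile of the MDV-R lists. A second HEY1 region, in exon 2, was called in C4-2B replicate 2 alone, with 12 tags.

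HES1, a related repressor, was also called lower in IP tags in MDV-R by limma. Its 3′UTR region at chr3:194137920-194138477 had a CPM of 63.8, 79.3, 86.8 and 82.2 in C4-2B and 49.9, 66.9, 58.4 and 43.5 in MDV-R. The tags were 1.44-fold lower in MDV-R (log2 difference -0.52, SE 0.16, limma adjusted p = 0.0112), with MDV-R replicate 2 above C4-2B replicate 1. Without MDV-R replicate 4, the lowest list, the log2 difference was -0.42 and the adjusted p 0.0889 in limma. The local background was 53.3, 31.7, 38.6 and 29.6 times the library average in C4-2B and 15.7, 10.1, 22.5 and 8.66 times in MDV-R. All MDV-R lists stood below all C4-2B lists, and the background was 2.81-fold lower (log2 difference -1.49, SE 0.42, limma adjusted p = 0.0248). This call was lost without C4-2B replicate 1 or 3 or MDV-R replicate 1, 2 or 4 (limma adjusted p = 0.0526 to 0.0935). Fold enrichment averaged 6.07 ± 1.82 in C4-2B against 10.4 ± 3.74 in MDV-R (SD, n = 4 each), higher in MDV-R by 0.77 on the log2 scale (SE 0.36) without passing (limma adjusted p = 0.162). HES6, which is known to oppose HES1, had no region in any C4-2B list; MDV-R replicates 1, 2 and 4 called its 3′UTR region at chr2:238238428-238239095 with 18 to 25 tags and a fold enrichment of 4.95 to 6.27. An antisense RNA overlaps HES6, and without strand in the lists the 2 cannot be told apart.

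MAML1, the coactivator, held the only pair of regions called in every list in one gene. In exon 2, at chr5:179765060-179765756, the CPM values were 86.2, 112, 109 and 108 in C4-2B and 105, 125, 112 and 127 in MDV-R. The values of C4-2B replicates 2 and 4 were read at summits outside the region, at positions 179765839 and 179766438, where their overlapping peaks were strongest, so that the lines are not compared at a single site here. The ranges overlapped (log2 difference 0.18, SE 0.16, limma adjusted p = 0.401). Fold enrichment was 11.0, 11.4, 13.1 and 16.4 in C4-2B and 17.9, 26.5, 13.9 and 32.1 in MDV-R, with MDV-R replicate 3 below C4-2B replicate 4 (log2 difference 0.74, SE 0.36, limma adjusted p = 0.175). In exon 5, at chr5:179773693-179774347, the CPM averaged 69.3 ± 14.1 in C4-2B against 80.9 ± 6.15 in MDV-R, and fold enrichment was 16.7 ± 4.72 and 21.0 ± 9.16 (limma adjusted p = 0.266 and 0.616). Between them, a region across the border of an intron and exon 3, at chr5:179768591-179768981, was called in C4-2B replicate 4 and in all 4 MDV-R lists. Of its 5 summits, 4 lay in the intron and that of MDV-R replicate 4 lay in the exon. Its CPM was 22.0 in C4-2B replicate 4 and 27.7, 29.7, 30.2 and 34.6 in MDV-R, and Fisher's exact test on the calls gave p = 0.143 (adjusted p = 0.997).

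**Figure D4:**
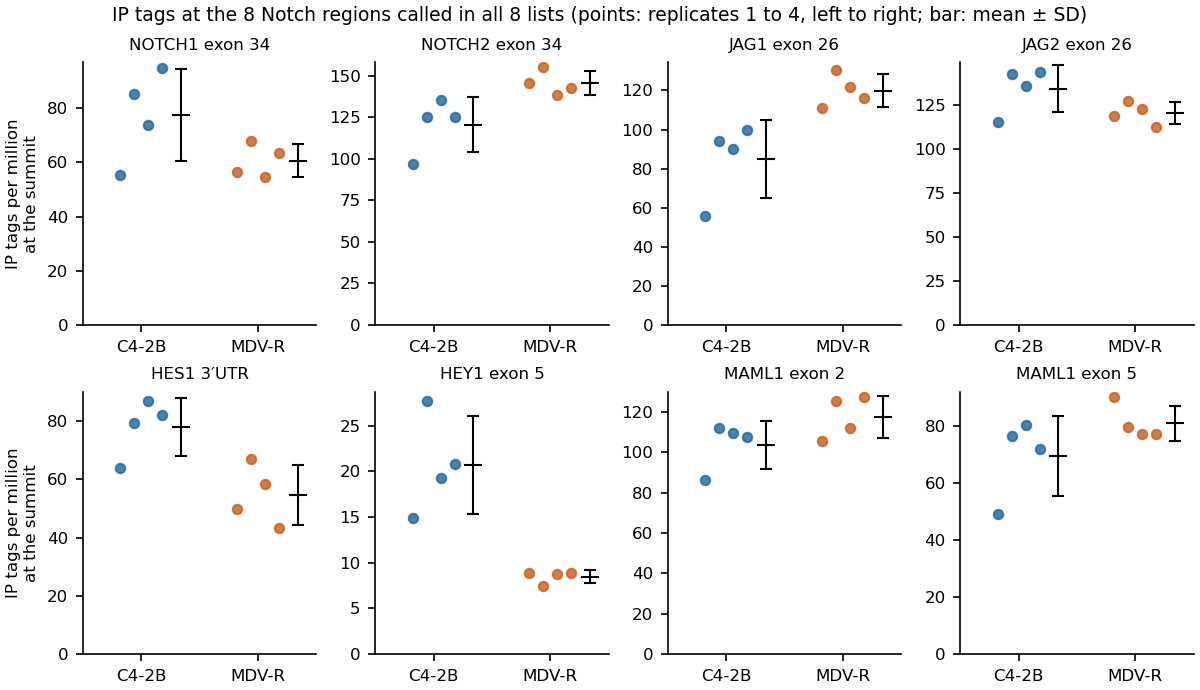
CPM of IP tags at the strongest summit of each list, for the 8 Notch regions called in every list; points are replicates 1 to 4 of each line from left to right, the bar gives mean and SD, and each panel has its own axis from 0. The 4 MDV-R points of HEY1 lie below a CPM of 9 and those of JAG1 above all C4-2B points.

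IP tags at a summit are a pileup over a single base, so transcript length does not enter, and the Notch regions can be ordered by them. The tags also depend on the amount of each transcript, so this is not an order of methylation. Averaged over the 4 lists of C4-2B, JAG2 (CPM 134 ± 13.2) and NOTCH2 (120 ± 16.4) overlapped in their ranges, followed by MAML1 exon 2 (104 ± 11.9), JAG1 (84.8 ± 19.9), HES1 (78.0 ± 9.97), NOTCH1 (77.4 ± 16.9) and MAML1 exon 5 (69.3 ± 14.1), in which each overlapped the next, and HEY1 (20.7 ± 5.32) stood apart below. In MDV-R, NOTCH2 (145 ± 7.12) stood above all others, JAG2 (120 ± 6.27), JAG1 (120 ± 8.45) and MAML1 exon 2 (117 ± 10.5) overlapped, MAML1 exon 5 (80.9 ± 6.15) stood below them, NOTCH1 (60.7 ± 6.23) and HES1 (54.7 ± 10.2) overlapped, and HEY1 (8.50 ± 0.712) was again the lowest. Mean fold enrichment gave another order. In C4-2B it was highest at JAG1 (22.3 ± 13.5), and HEY1 (10.1 ± 3.31) stood above JAG2 (9.15 ± 2.90), NOTCH2 (8.23 ± 3.03) and HES1 (6.07 ± 1.82), with overlapping ranges. In MDV-R JAG1 (25.7 ± 9.70) was again the highest and HEY1 (6.03 ± 1.21) the lowest. The regions most like NOTCH2 exon 34 over the 8 lists, by Pearson correlation of log2 IP tags among the leading regions of 6253 genes outside the pathway, were those of PARP14 (r = 0.99), STK35 (r = 0.99) and PPP1R26 (r = 0.99), each in coding sequence; the 8 points share their libraries and their depths.

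The rest of the pathway was described from a list of 60 further genes, which held 158 regions in 44 genes. Of these, 54 (34.2%, against 25.2% of all regions) were called in every list, in 31 genes. In fold enrichment none of the 54 passed (3.41% of all regions were called higher and 0.225% lower), and the median log2 difference was 0.52, against 0.44 over all regions. The lowest adjusted p-values in limma were those of the corepressors CTBP2 (0.0505) and TLE3 (0.0515) and of HES2 (0.0761), a further HES repressor. Their log2 differences were 1.12, 1.11 and 1.00. The HES2 value is from the 3′UTR region at chr1:6415301-6416071. A HES2 3′UTR region with more IP tags, at chr1:6417355-6419378, was also called in every list. There fold enrichment was lower in MDV-R without passing (log2 difference -0.42, limma adjusted p = 0.439), and IP tags were called lower (log2 difference -0.68, limma adjusted p = 0.00144). For IP tags 11 regions were called higher and 9 lower in MDV-R (19.8% and 14.7% of all regions), and for local background 1 higher and 5 lower (1.66% and 11.0%). Only MDV-R lists, all 4 of them, called 4 regions (2.53%, against 3.68% of all regions with a peak), and no region was called in that way for C4-2B. The 4 lay in the coding sequence of CREBBP, a histone acetyltransferase (chr16:3770661-3771177, 52 to 70 tags), and of NUMB, an inhibitor of Notch (chr14:73276438-73276899, 38 to 57 tags), and in the 5′UTR of DTX1 (chr12:113057486-113058227, 27 to 35 tags) and DTX4 (chr11:59172021-59172566, 14 to 30 tags), members of the Deltex family of ubiquitin ligases that act on Notch receptors. DTX4 also had coding regions called in every list, at chr11:59181655-59182370 and chr11:59204514-59205113. Their IP tags were higher in MDV-R (log2 difference 1.49 and 1.07, limma adjusted p = 2.3e-09 and 5.01e-06). The first also had a higher local background (log2 difference 1.58, limma adjusted p = 0.0288). The part of transcript amount in the 5′UTR call was not tested.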

How the data were processed

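RNA of C4-2B and MDV-R cells was examined in 16 libraries, IP and input of 4 replicates per line; groups follow the cell line and antibody labels. Per the labels and the study's methods, alignment by the authors used STAR 2.7.0 on hg38 with GENCODE, SAMtools 1.10 kept uniquely mapped, deduplicated reads, and MACS2 (3.0.0a6 in the processing notes) then compared every IP library with its input, reads being extended to 100 nt on a genome of 300 Mb. Replicates were not pooled. The deposited lists give, per peak, a fold enrichment (a ratio), its p-value and its q-value, both as −log10, and a score made from the latter; the deposited merged list gives regions without values, and how it was merged is not given in the sources used here. The authors' test on read counts was not run.

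IP tags and local background were solved from fold enrichment, which is the IP pileup plus 1 over the background plus 1, and from −log10 p, its Poisson tail. A whole number of tags gave the −log10 p within 0.001 (within 0.001 times the −log10 p over 100 above that) in 99.99% to 100% of peaks per list, and in 0% to 1.5% of a sample of peaks with a wrong scale. Library sizes follow from the lowest shared background and are reconstructions. A region was called in a list where at least 1 bp of a peak overlapped it. Summits were placed with GENCODE release 44 on hg38. limma 3.58.1 (R 4.3.3) compared the lines over regions called in 8 of 8 lists; for fold enrichment its variance prior gave all regions the same SE. The threshold was 0.05. Recovery and fits were tested on simulated data. Alternatives were lists of equal size, a stricter peak threshold (−log10 q from 5 up), an overlap of 50%, centring, the peak with the highest fold enrichment, an exact permutation test, a replicate block, windows of 25 nt and leaving out each library; regions built from the lists themselves, and all alternatives for the other pathway genes, were added after seeing the data. The replicate numbers did not pair the libraries (correlations of deviations from -0.07 to 0.04).

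The 10 genes, the pathway list, the markers and the tests were chosen with earlier results of these data known. Values in every list are given for the region of each gene with the most IP tags among those called in every list, or else the region called in most lists. Some of the marker genes are not reported here. Coordinates are 1-based.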

Additional observations from a re-analysis of the deposited data

Results flagged for a closer look

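In each of 60 groups of 4 libraries the highest and the lowest value were compared with the other three; chance alone sets apart about 1 group in 20, and 6 groups held such a value. The list of C4-2B replicate 1 held 13191 peaks, far fewer than the others of its line, and its IP library was the one that was larger than its input. At MAML1 exon 2 the same library had the low value, a CPM of 86.2. At HEY1 exon 5, MDV-R replicate 2 had a CPM of 7.44, below 3 libraries that lay close together. At JAG2, the local background of MDV-R replicate 3 was 63.8 times the library average, and MDV-R replicate 3 also had the smallest input of its line. At the cluster of peaks in the DLL1 span, the local background was 2.75 in C4-2B replicate 3 and 1.88 in MDV-R replicate 3.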

How the results depend on the processing

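The count of Notch regions called in every list was 8 to 9 with each library left out. With lists of equal size 2 regions separated the lines, HEY1 exon 5 (C4-2B alone) and the region at the border of MAML1 exon 3 (MDV-R alone), and with each library left out 0 to 2 did, 1 without C4-2B replicate 4 (the same MAML1 region) and 2 without MDV-R replicate 3 (NOTCH2 exon 25 and the HES6 3′UTR). The shares of all regions that separate the lines under these settings are not given here. Changed fold enrichment numbered 1 after centring (HEY1) and 0 to 4 with each library left out, 4 without MDV-R replicate 3 (NOTCH1, NOTCH2, HES1 and MAML1 exon 2), where 21.6% of all regions were called higher and 0.793% lower. Changed IP tags numbered 5 after centring and 2 to 4 with each library left out, and changed local background 0 to 3. By an exact permutation test, whose smallest two-sided p is 0.0286, the adjusted p was 0.0896 for HEY1, JAG1 and NOTCH2 and 0.143 for HES1 in IP tags, and 0 Notch regions passed in any measure, with 0 over all regions (1038, 2975 and 1644 unadjusted for fold enrichment, IP tags and local background). With the replicate block no Notch call changed (limma adjusted p = 5.93e-14 for HEY1, 0.00312 for JAG1 and 0.0038 for HES1 in IP tags, and 0.0197 for HES1 and 0.0222 for NOTCH1 in local background). In that fit the 8 Notch regions had the same SE for IP tags, 0.158, whatever their counts, so the p-value of HEY1 can overstate the certainty.

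Signs turned after centring for fold enrichment at JAG2 (-0.15), JAG1 (-0.039) and MAML1 exon 5 (-0.12) and for local background at JAG2 (0.043) and MAML1 exon 5 (0.42), none of them called. With each library left out the difference ran from -0.10 (without C4-2B replicate 1) to 0.72 for JAG1 in fold enrichment, from -0.18 to 0.57 for JAG1 in local background and from -0.38 to 0.31 for MAML1 exon 5 in local background. Of 331 values for single regions under the alternatives, 294 kept direction and side of the threshold. HEY1 was not tested with lists of equal size or the stricter peak threshold, as fewer lists then called it. Centring moved all calls to 79 higher and 167 lower for fold enrichment, 2169 and 2518 for IP tags, and 555 and 643 for local background.

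For the other pathway genes, regions separating the lines numbered 8 with lists of equal size and 4 to 9 with each library left out. No share of all regions is given here for these settings. Changed fold enrichment numbered 2 with the replicate block and 1 after centring, with the highest fold enrichment or with regions built from the lists. Over all regions 418 were then called higher and 30 lower with the block, 79 and 167 after centring, 324 and 21 with the highest fold enrichment (of 9327 each), and 342 and 21 of 9828 with regions built from the lists. With each library left out it numbered 0 to 17. It was 17 without MDV-R replicate 3, where 21.6% of all regions were called higher and 0.793% lower. Changed IP tags numbered 13 with lists of equal size (1461 higher and 712 lower of all 6804 regions), 0 by permutation and 13 to 24 with each library left out. Changed local background numbered 0 by permutation and 2 to 18 with each library left out. The shares of all regions for these ranges are not given here. Low counts limit the precision at HEY1 in MDV-R (7 to 9 tags) and at DLL1 (6 to 11 tags).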
